A study of Homo sapiens with 7 samples.

Results

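The genes described here encode the proteins of the cytosolic ribosome. They were chosen by name: every protein-coding gene of RefSeq on human chromosomes 1 to 22 and X called RPL or RPS with a number, with or without a single A or X, together with RPLP0, RPLP1, RPLP2 and RPSA. This gave 77 of 19974 protein-coding genes, 46 for the large subunit and 31 for the small subunit. The genes lie on 21 chromosomes, 12 of them on chromosome 19, and their spans run from 1335 bp (RPL41) to 27723 bp (RPS29), with a median of 5011 bp. Introns of 29 of these genes hold 60 snoRNA genes in all, with up to 4 in a single host.

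Open chromatin was mapped by ATAC-seq, in which a transposase inserts sequencing adapters into accessible DNA, in H1, an established human embryonic stem cell line, and in cells made from it toward pharyngeal endoderm. Of 4 stages, hESC denotes the undifferentiated line, hDE its definitive endoderm, hAFE the foregut endoderm of anterior kind and hPFE that of the pharynx. The first 3 have 2 libraries each and hPFE has 1. The titles mark the hESC and hDE libraries as re-analyzed from earlier work, so stage and source of the data cannot be told apart between hDE and hAFE or between hESC and hPFE. Nothing in the labels says whether replicates came from separate cultures.

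Ribosomal proteins and ribosomal RNA build the 40S and 60S subunits that translate every mRNA. Their genes are expressed in nearly all cells and are scattered over the genome, and their mRNAs typically open with a C followed by a run of pyrimidines, the 5′ terminal oligopyrimidine or TOP motif, through which growth signals set their translation. Many of them carry box C/D or H/ACA snoRNA genes in their introns, which guide the modification of ribosomal RNA.

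A pyrimidine run was found at most of these starts, and the windows of members that recur in the results are shown, with and without it. Each line gives 15 bases before and 15 bases from the RefSeq start (GRCh38.p14) on the gene's strand, with capitals for a run of at least 6 pyrimidines that begins with C and opens between base -5 and base 6, counted with the first base of the transcript as 1 and no base 0.
RPLP0, chr12:120201097-120201126, minus strand: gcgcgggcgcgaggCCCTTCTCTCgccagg
RPL34, chr4:108620561-108620590, plus strand: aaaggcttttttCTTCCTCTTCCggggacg
RPS12, chr6:132814554-132814583, plus strand: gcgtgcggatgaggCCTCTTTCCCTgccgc
RPL13A, chr19:49487593-49487622, plus strand: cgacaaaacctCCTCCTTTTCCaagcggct
RPS6, chr9:19380222-19380251, minus strand: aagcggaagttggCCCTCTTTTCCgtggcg
RPSA, chr3:39406705-39406734, plus strand: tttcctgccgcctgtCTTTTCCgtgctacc
RPS19, chr19:41860240-41860269, plus strand: ggaaaccccgtcgttCCCTTTCCCCTggct
RPL41, chr12:56116618-56116647, plus strand: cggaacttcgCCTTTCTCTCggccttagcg
RPL7A, chr9:133348203-133348232, plus strand: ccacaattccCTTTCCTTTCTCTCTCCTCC
RPL19, chr17:39200268-39200297, plus strand: tgggctctccccttcgcagataatgggagg
RPL15, chr3:23916530-23916559, plus strand: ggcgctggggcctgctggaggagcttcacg
RPL6, chr12:112411428-112411457, minus strand: tatttgtatcctcagtgaatcagaaccaga

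Such a run was found at 46 of the 62 members whose start the RefSeq promoter table gives (74.2%), against 1783 of 15812 protein-coding genes (11.3%). Of the 12 windows printed, those of RPL19, RPL15 and RPL6 hold none at the position searched. The median run was 11 bases long in the members and 8 in all genes that had one. The start base itself was C in 74.2% of members and 11.3% of all genes.

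Other short motifs were searched on both strands of the 300 bases from 250 before to 50 after the start. CCGGAA, the core of ETS family sites, was present in 53.2% of members and 22.8% of all genes. AAGATGG (YY1) was present in 12.9% against 6.40%, GCATGCG (NRF1) in 8.07% against 5.14%, GGGCGG (SP1) in 54.8% against 58.5% and CCAAT (NF-Y) in 33.9% against 36.3%. On the gene's own strand, TATAAA between bases -40 and -15 was found in 2 of 62 members (3.23%) and in 3.64% of all genes. On either strand of the 300 bases it was present in 8.07% against 9.64%. Median GC content was 59.0% in the members and 62.7% in all genes, and the median ratio of observed to expected CpG was 0.911 against 0.763. A match is a description of the letters and no evidence of binding. The 150 bases before the start of RPLP0, the stalk protein, and of RPS14, a small subunit protein, illustrate 2 different layouts, with CCAAT and TATAAA in the first and CCGGAA and GGGCGG in the second, all in capitals on either strand.
RPLP0, chr12:120201112-120201261, minus strand: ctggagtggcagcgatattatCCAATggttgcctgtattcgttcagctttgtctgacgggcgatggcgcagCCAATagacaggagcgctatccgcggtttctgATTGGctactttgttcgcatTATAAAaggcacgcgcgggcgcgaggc
RPS14, chr5:150449740-150449889, minus strand: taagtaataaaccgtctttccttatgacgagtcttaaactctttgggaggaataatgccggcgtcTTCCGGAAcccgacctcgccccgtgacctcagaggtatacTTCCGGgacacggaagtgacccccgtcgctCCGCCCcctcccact

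The 7 peak lists hold 298508 to 299374 peaks each, and the −log10 p of the weakest peak ranged from 2.23 to 8.86, so a library with no peak at a site has none down to a limit that varied among the lists. Background per window, recovered from the deposited fold and p-values, ranged from 2.11 to 7.94 counts. Strict regions are the 50000 strongest merged regions of each library. Of the stage markers, POU5F1 had 1 and 3 strict regions in the hESC libraries and 0 in all later ones, SOX17 had 2 and 1 in hDE against 1 and 0 in hESC, and TBX1 had 1 in hPFE and 0 elsewhere. Others did not follow. DPPA4 (hESC) and GATA6 (hDE) each had 2 and 1 in both hESC and hDE, and GATA6 had 3 and 1 in hAFE. Of the hPFE markers, EYA1 had 7 to 12 in the earlier libraries and 5 in hPFE, and PAX9 had 2 to 3 and then 1. The hESC markers together had 8 and 10 in hESC and 1 to 4 later. The hDE markers had 12 and 9 in hDE, 6 in each hESC library and 8 to 9 later. The hPFE markers together had 13 to 20 per library and 15 in hPFE, and the hAFE markers 7 to 8 in hESC and hDE, 4 and 6 in hAFE and 5 in hPFE, so the sums of these 2 lists were not highest at the stages they are named for. The listed blood genes PTPRC and RUNX1 together had 4 to 16 strict regions per library, the most in hPFE. The 2 genes differed: RUNX1 had 13 in hPFE and 3 to 9 elsewhere, and PTPRC had 1 to 4, with 3 in hPFE. The listed mesenchyme genes together had 5 to 10, with 6 in hPFE, and the neural genes 2 to 4, with 3 in hPFE. The part of other cells in the results below was not tested. No comparison below has a test, because 2 libraries against 2 are too few for an exact test to reach the usual threshold and hPFE has 1 library. Read depth is unknown from these lists.

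Ribosomal protein gene starts were open at every stage. A peak with its summit within 500 bp of the start was present in all 7 libraries at 76 of 77 genes, where the share over all protein-coding genes was 66.2%. A strict region was present in all 7 libraries at 71 of 77 (92.2%), where the share over all genes was 49.4%. For the 62 members with a given start the counts were 61 and 56, beside 68.4% and 52.4% of 15812 genes. The 15 others have no start in the table, and either end of the gene was accepted for them. All 15 were strict in every library, and accepting either end gives a gene more sequence in which to find a peak.

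Each gene was then ranked in each library among all 19974 genes by the −log10 p of its strongest start peak. The median percentile of the 77 genes was 70.3 and 71.1 for hESC, 71.8 and 68.0 for hDE, 75.2 and 66.5 for hAFE, then 72.8 for hPFE. The lowest and the highest of these came from the 2 replicates of hAFE, so the stages did not separate beyond the replicates. By the median over libraries, 70 of 77 genes stood above the median of all genes. Restricting members and background to given starts lowered the library medians, for example to 63.1 in hESC replicate 1.

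**Figure D1:**
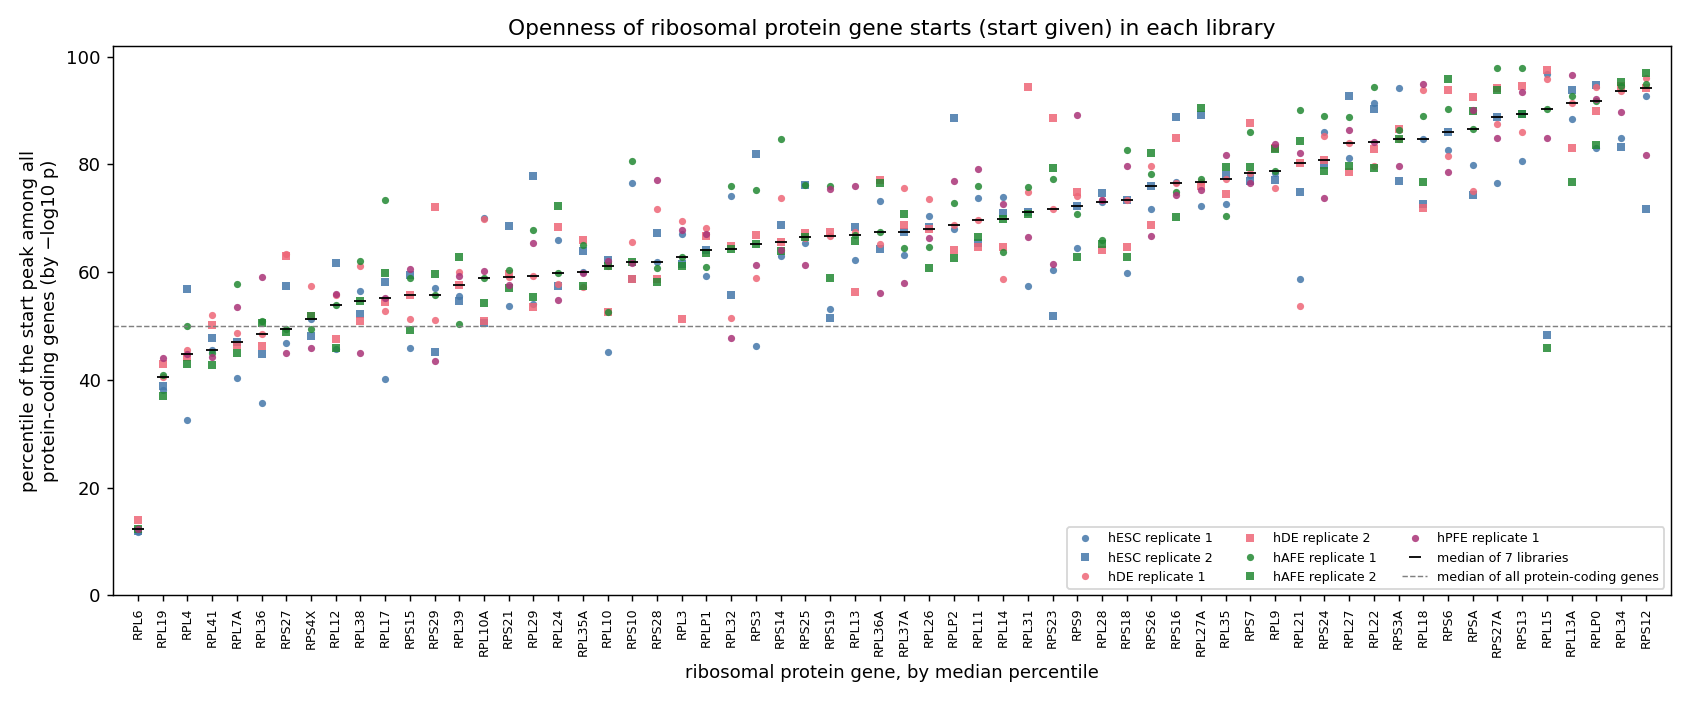
Percentile of the start peak of each of the 62 ribosomal protein genes with a given start (x axis, ordered by median) among all protein-coding genes (y axis, by −log10 p) in each of 7 libraries; the dash is the median over libraries and the dashed line the median of all genes. RPL6 lies near 12 in every library and 55 of 62 medians lie above 50.

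Lists of related function gave values close to these. Of 77 mitochondrial ribosomal protein genes, which encode the separate ribosome of mitochondria, 71 were strict in every library, the same number as in the cytosolic list, and the median percentile over libraries was 71.4 against 69.7. Of 30 ribosome biogenesis genes 29 were strict in every library, and of 37 translation factor genes 30. Differences between the lists were not tested.

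**Figure D2:**
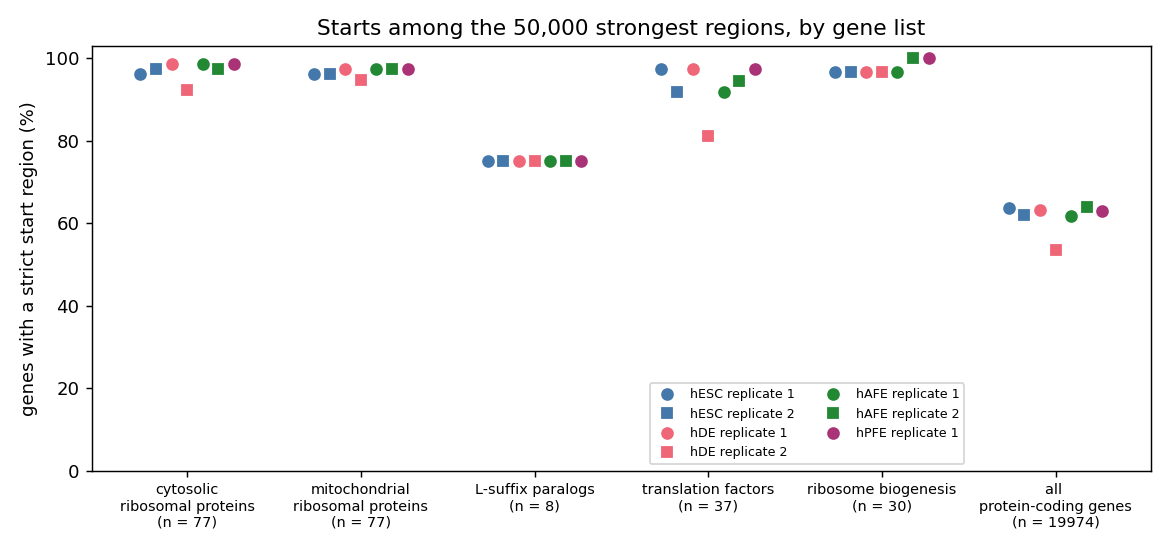
Percent of genes with a strict start region (y axis) in each of 7 libraries (points) for the cytosolic ribosomal protein genes, the related gene lists and all protein-coding genes. The cytosolic list lies between 92.2% and 98.7%, and all protein-coding genes between 53.6% and 64.0%.

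Among the large subunit genes 40 of 46 were strict in every library, and among the small subunit genes all 31 were. The median percentile was 67.7 for the large and 73.3 for the small subunit, with broad overlap (12.3 to 95.6 and 49.4 to 94.3). Members without a given start, for which either end was accepted, had a higher median (76.5) than the others (67.4). Within the given starts it was 67.2 for 38 large and 72.0 for 24 small subunit genes. The 29 snoRNA hosts had a median of 72.9 and the 48 others 69.2, but 10 of the hosts and 5 of the others have no given start, and within the given starts the medians were 66.9 and 67.4. Members with a pyrimidine run had a median of 68.3 and those without 63.6. For 12 members the nearest start of another gene lay within 1 kb on the opposite strand. Their median was 75.0, against 67.1 for the other 50 given starts, and a peak there can belong to either gene.

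The stalk of the large subunit, which recruits the translational GTPases, is formed by RPLP0 and dimers of RPLP1 and RPLP2. RPLP0 stood at percentiles 83.01 and 94.75 for hESC, 94.3 and 89.9 for hDE, 91.7 and 83.6 for hAFE, then 92.1 for hPFE. RPLP1 ranged from 59.2 to 68.2 and RPLP2 from 62.6 to 88.6. RPLP0 was above RPLP1 in each library, whereas RPLP2 reached the level of RPLP0 in none.

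The most open starts, by median percentile, were those of RPL37 (95.6), RPS20 (94.3), RPS12 (94.1), RPL34 (93.7) and RPLP0 (91.7). RPL37, a large subunit protein, stood at 90.6 and 96.1 for hESC, 91.7 and 95.6 for hDE, 96.5 and 99.0 for hAFE, then 91.3 for hPFE. RPS20 ranged from 83.7 to 98.5 and RPL34 from 83.2 to 95.2. RPS12 fell apart between the hESC replicates, at 92.7 and 71.7, and lay between 81.8 and 96.9 in the other libraries. RPL37 and RPS20 are among the genes for which either end was accepted.

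Among the other large subunit proteins, RPL3, which reaches toward the peptidyl transferase centre, ranged from 51.3 to 69.5. RPL5 and RPL11, which bind 5S ribosomal RNA and can inhibit MDM2 when free of the ribosome, ranged from 65.9 to 88.4 and from 64.6 to 79.2. RPL22, which has a close paralog in RPL22L1, ranged from 79.3 to 94.4. RPL10, which joins the subunit late in its maturation, ranged from 45.1 to 62.2, RPL38 from 45.0 to 62.0 and RPL39, which lines the exit tunnel, from 50.5 to 62.8. RPL41, the shortest of the 77 genes, ranged from 42.8 to 52.1 and was still strict in all 7 libraries. RPL10, RPL38, RPL39 and RPL41 thus lay close to the median of all genes, with ranges that overlap each other.

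In the small subunit, RPSA, which is also known as the laminin receptor, stood at 80.0 and 74.4 for hESC, 75.2 and 92.6 for hDE, 86.5 and 89.9 for hAFE, then 90.2 for hPFE. Its replicates differed by up to 17.4 points, more than the range of the stage means. RPS6, the target of S6 kinases, ranged from 78.7 to 95.8. RPS27A, made as a fusion with ubiquitin, ranged from 76.5 to 97.9, and its summit lay 385 to 403 bp inside the gene, where the start of CLHC1 on the other strand lies at 390 bp. A separate, weaker peak lay at 37 to 76 bp in every library, at 8.48 to 20.4 times background against 26.1 to 138.3 at the main summit. The percentiles of RPS27A come from the main summit by CLHC1 and not from the weaker peak.

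6 genes, all of the large subunit, were not strict in every library. RPL19 was strict in 4 of 7, RPL4 and RPL36 in 5, RPL7A and RPL12 in 6, and RPL6 in 0. RPL19 had percentiles of 38.0 and 38.8 for hESC, 40.5 and 43.0 for hDE, 40.9 and 36.9 for hAFE, then 44.1 for hPFE, below the median of all genes throughout. Its strongest peak within 5 kb of the gene lay elsewhere in all 7 libraries, with its summit at -2635 to -2601 bp from the start, near the start of CACNB1. RPL4 had 32.6 and 56.8 in hESC and 42.9 to 49.9 in the later libraries, RPL7A ranged from 40.3 to 57.8, RPL36 from 35.8 to 59.1 and RPL12 from 45.7 to 61.6. The summit scored for RPL4 lay after the start in 3 libraries, at up to 21 bp, and in the others at -419 to -412 bp. The start of ZWILCH lies at -471 bp on the other strand, so the percentiles of RPL4 do not rest on 1 peak. Leaving out hDE replicate 2, in which the −log10 p needed for a strict region was highest (97.1), raised the count of strict genes from 71 to 73. Leaving out a library can only keep or raise this count.

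RPL6 had no peak at the start the RefSeq table gives. That start lies 7393 bp inside the gene span, the only given start more than 500 bp inside, and its window is the one printed above. At the gene's upstream end a peak was present in every library, with summits at -121 to -40 bp from that end. The region of these peaks also holds the start of PTPN11, and the starts of the 2 genes cannot be told apart there. Its height over background was 21.8 and 24.9 for hESC, 27.5 and 21.3 for hDE, 54.5 and 27.8 for hAFE, then 14.7 for hPFE. When either end was accepted for every gene, 77 of 77 had a start peak in every library and 73 a strict one, RPL6 through the region it shares with PTPN11. A second peak lay 1797 to 1824 bp after the table's start in all 7 libraries.

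**Figure D3:**
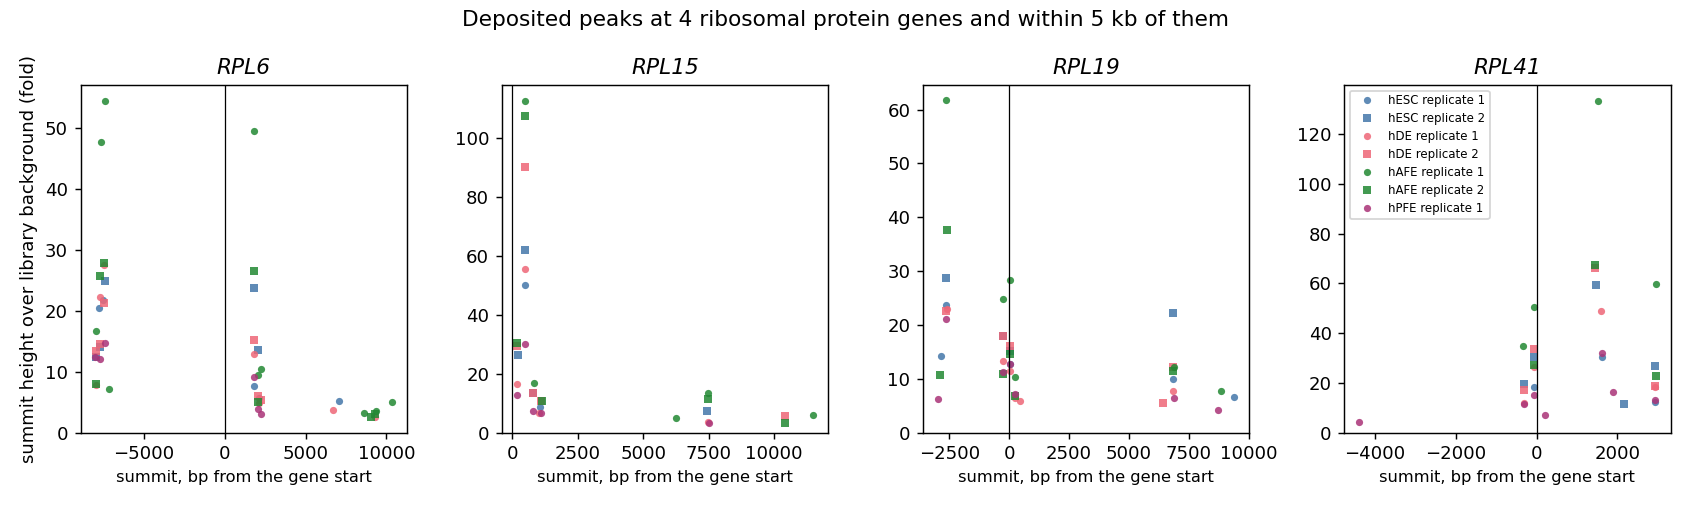
Deposited peaks at RPL6, RPL15, RPL19 and RPL41 in each library, by distance of the summit from the RefSeq start in bp (x axis) and height over the library's background (y axis). At RPL6 peaks stand at -7514 to -7433 bp and at 1797 to 1824 bp from the table's start.

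Summits at ribosomal protein genes lay mostly before the start. At the 61 members with a given start and a start peak, the median position was -75 to -90 bp per library, against -50 to -59 bp over all genes and -45 to -64 bp at mitochondrial ribosomal protein genes. The summit lay after the start in 4.92% to 13.1% of members and 21.8% to 28.0% of all genes. It lay before the start in every library at 53 members, after it in every library at 3 (RPL10, RPL15 and RPS27A), and on both sides at 5 (RPL19, RPL32, RPL4, RPL7A and RPL9). RPL19, for example, had summits at 29 to 41 bp in 4 libraries and at -272 to -259 bp in 3.

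**Figure D4:**
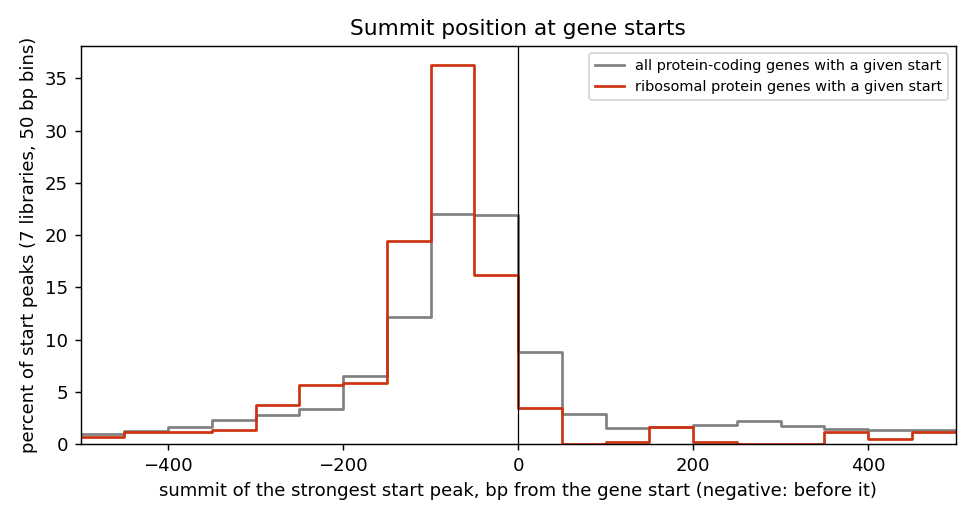
Percent of start peaks (y axis, 50 bp bins, 7 libraries together) by distance of the summit from the gene start in bp (x axis, negative before the start), for ribosomal protein genes and all protein-coding genes with a given start. The ribosomal protein curve is shifted to the left, with library medians of -75 to -90 bp against -50 to -59 bp.

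No ribosomal protein gene start met the rule for a gain or a loss between stages. A start counted as gained when each later library had it strict and no earlier library had a start peak, and as lost in the reverse case. From hESC to hDE 0 of 77 were gained and 0 lost, where 0.165% and 0.155% of all genes were. From hDE to hAFE 0 and 0 stood beside 0.13% and 0.0801%. From hAFE to hPFE 0 and 0 stood beside 0.285% and 0.37%, and from hESC to hPFE beside 0.411% and 0.661%. These shares are so low that 0 of 77 is near the background. The 0 counts were also fixed by the presence of peaks. Of the 77 members, 76 had a start peak in every library and RPL6 had none, so no member could meet the rule. Strict at both ends were 71, 71, 75 and 73 members in the 4 comparisons, where all genes gave 50.8%, 51.2%, 58.1% and 56%.

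The percentile of a gene was also compared between stages, with a shift counted when all libraries of 1 stage lay above all of the other. Over the 76 members with a start peak in every library, 17 were higher in hDE than in hESC (22.4%; 17.7% over 13231 genes) and 5 lower (6.58%; 16.8%). From hDE to hAFE 10 were higher and 10 lower (13.2% each), against 16.4% and 16% over all genes. From hAFE to hPFE 27 were higher (35.5%; 37.2%) and 30 lower (39.5%; 35.4%), and from hESC to hPFE 27 were higher (35.5%; 36.7%) and 23 lower (30.3%; 31.8%). The comparisons share libraries, and with 1 hPFE library the last 2 are easier to meet. The range of stage means exceeded the widest replicate gap in 31 of 76 members (40.8%; 47.3% over all genes). The median absolute difference between 2 libraries over the members averaged 6.48 percentile points within a stage and 6.67 between stages. Over all genes, where those without a start peak share the lowest percentile, it averaged 4.63 and 5.31.

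The widest ranges of stage means belonged to RPL15 (28.7 points), RPS23 (24.1), RPS19 (22.97), RPL32 (22.3) and RPS9 (22.3). RPL15 stood at 96.8 and 48.4 for hESC, 95.9 and 97.6 for hDE, 90.4 and 45.8 for hAFE, then 84.9 for hPFE. Its main summit lay 476 to 504 bp after the start in all 7 libraries, beside the start of NKIRAS1 at 510 bp on the other strand, and fell outside the 500 bp window in the 2 low libraries alone. There the percentile comes from weaker peaks inside the window, of 26.4 and 30.4 times background. The main summit itself had heights of 50.2 and 62.1 in hESC and 112.6 and 107.5 in hAFE. RPS19, mutated in Diamond-Blackfan anaemia, had its strongest summit at -611 to -467 bp, inside the window in hAFE replicate 1 alone. Its stage means were 52.38 for hESC, 67.09 for hDE, 67.43 for hAFE and 75.35 for hPFE, so hAFE was at neither end of its range.

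RPS23, which lies in the decoding centre, stood at 60.5 and 51.8 for hESC, 71.8 and 88.6 for hDE, 77.3 and 79.3 for hAFE, then 61.6 for hPFE. Both hDE and both hAFE libraries were above the hESC and hPFE libraries, without overlap. RPS23 was named for its wide range of stage means, which favours such a separation. Its scored summit ran from -310 to -4 bp among the libraries. RPS9 stood at 64.4 and 72.3 for hESC, 74.1 and 74.9 for hDE, 70.8 and 62.8 for hAFE, then 89.1 for hPFE, where the single hPFE library was the highest. RPL32 stood at 74.1 and 55.8 for hESC, 51.5 and 64.8 for hDE, 76.1 and 64.3 for hAFE, then 47.9 for hPFE, and its replicates overlapped between the first 3 stages.

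Around the genes, within the span and 5 kb of either end, 313 to 371 peaks were counted per library, with a median of 4 per gene in 6 libraries and 5 in hPFE. RPL23A had the most (mean 12.1 per library), followed by RPS29 (9.86), RPL28 (9.14), RPL7 (8.43) and RPS24 (6.86). The strongest peak of the locus lay within 500 bp of the gene's start, or of either end where none is given, in every library for 56 genes. It did so in some libraries for 10 genes and in none for 11. The same counts were not computed over all protein-coding genes, so they describe these loci alone. At RPS27A, among the 56, the strongest peak lay near the start of CLHC1. The same held for others of the 56. For example, the strongest peak lay near another gene's start at RPL12 (LRSAM1), RPL18 (SPHK2), RPL35 (ARPC5L), RPL9 (LIAS), RPS25 (TRAPPC4) and RPS28 (NDUFA7). Where it was elsewhere it often lay at another gene's start: for RPL41 it was 1450 to 1611 bp after the start, past the end of the gene and near the start of ZC3H10, and for RPL28 at that of UBE2S.

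The peaks within 5 kb merged into 145 regions that were strict in at least 1 library: 77 at a member's start, 29 at the start of another gene, 11 elsewhere in a member's span and 28 in the flanks. Strict in every library were 71, 15, 3 and 3 of these, 92 in all (63.4%), where 11.2% of 129718 regions were. Most of the 145 regions lie at gene starts, unlike the regions of the background.

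Of the 145 regions, 7 met the rule for a gain or a loss in at least 1 comparison. From hESC to hDE 0 were gained and 0 lost, beside 5.43% and 1.15% of all regions. From hDE to hAFE 2 were gained (1.38%) and 0 lost, beside 2.05% and 3.2%. From hAFE to hPFE 2 were gained (1.38%) and 1 lost (0.69%), beside 8.45% and 4.18%. From hESC to hPFE 3 were gained (2.07%) and 2 lost (1.38%), beside 13.4% and 6.62%. Strict at both ends were 92, 92, 106 and 101 of the 145 regions, beside 15.8%, 16.4%, 17.5% and 14.4% of all regions. None of the 7 regions involved was at a gene start. Most of the 145 regions were, so the lower shares cannot be told apart from this make-up.

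The region inside RPL14 (chromosome 3, 40467952 to 40468312), gained from hDE to hAFE, had no peak in any hESC or hDE library. Its heights were 16.7 and 10.4 times background in the hAFE replicates and 2.47 in hPFE. The region near RPL3 (chromosome 22, 39308688 to 39309126) had a peak in hPFE alone, at 10.4, and the region near RPL26 (chromosome 17, 8384847 to 8385382) had 15.5 in hPFE and 12.2 in hDE replicate 2. The region near RPL29 (chromosome 3, 51997910 to 51998481) had no peak in hESC, 7.21 and 15.2 for hDE, 20.7 and 16.4 for hAFE, then 21.4 for hPFE.

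Of the 2 regions lost from hESC to hPFE, that near RPSA (chromosome 3, 39404842 to 39405428, 1292 bp outside the gene) had 17.1 and 27.5 in hESC, a peak of 8.69 in hDE replicate 2 and none elsewhere. The region near RPL13 (chromosome 16, 89557387 to 89557748) had peaks in all libraries except hPFE, from 9.17 to 27.1 times background. Leaving out a library relaxes the rule, so the counts can only stay or rise. Without 1 hESC library the regions lost from hESC to hPFE went from 2 to 5 (without replicate 2) or 7 (without replicate 1). Without 1 hAFE library those lost from hAFE to hPFE went from 1 to 2 (without replicate 2) or 4 (without replicate 1). The shares over all regions were not computed for these.

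**Figure D5:**
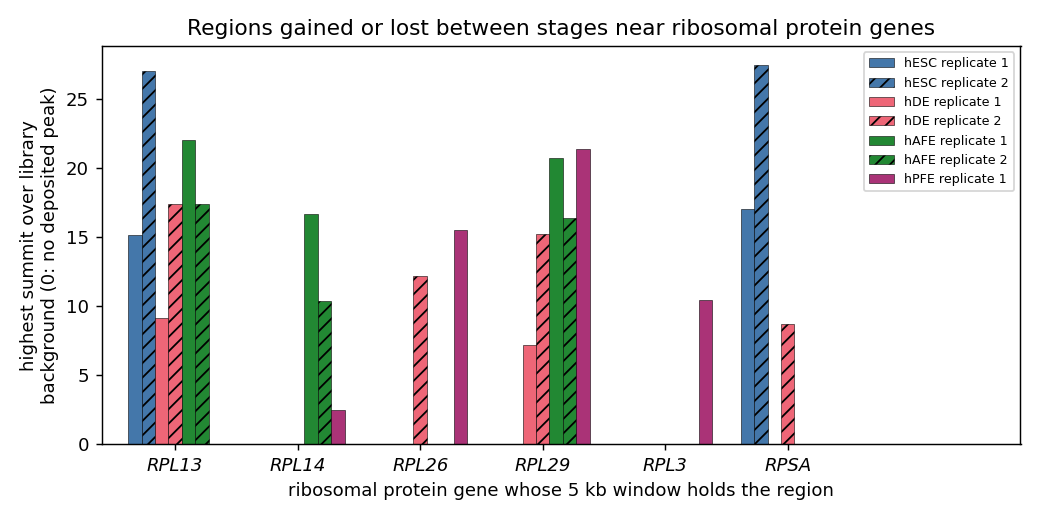
Height of the highest summit over library background (y axis) in each of 7 libraries (bars, 0 where the list has no peak) for the 6 regions near ribosomal protein genes with a given start (x axis) that were gained or lost between stages. The RPL3 region has a bar in hPFE alone, and the RPL13 region has bars in all libraries except hPFE.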

How the data were processed

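ATAC-seq peak lists of 7 libraries were used on hg38, the build named in the submitters' processing notes, which also name DiffBind. Aligner and caller: not given in the sources used here. Peaks were deposited per library. The authors' deposited values are a fold (a ratio of summit height to local background) and −log10 p and q per peak, scaled within each library, and they were used to describe and rank peaks within a list. Summit heights in counts and the background were computed from the deposited fold and −log10 p under a Poisson model, which returned the deposited −log10 p within 0.001 for 100% of peaks.

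Overlapping peaks were merged into regions, and the 50000 with the highest −log10 p in a library were called strict. Gene positions, starts and sequences came from RefSeq (GRCh38.p14): the promoter table gives a start for 62 of 77 members, and either gene end was used for the 15 others. Genes without a start peak share the lowest percentile. The members and gene lists were chosen with earlier results of these data known. Named genes are those not strict in every library, the 5 highest, the 5 lowest and the 5 most variable by percentile, those with the most peaks or with changed regions, and a fixed set of well-studied members. RPS14 and RPL13A, whose sequences are printed, were chosen after the values were seen. Some members and 1 changed region enter the counts but are not reported here by name, and gene-level figures show members with a given start. No p-values were computed. Alternatives changed the strict threshold (25000 or 100000), the ranking (fold), the window (250 or 1000 bp), the flank (1 kb), the start positions and the libraries included. Calls were checked on simulated data. Python 3.11.15, numpy 2.4.6, pandas 2.3.3 and scipy 1.17.1 were used.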

Additional observations from a re-analysis of the deposited data

How the results depend on the processing

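Against the replicate spread (medians and peaks per gene) or a factor of 1.5 (counts), 135 recomputed values stayed within the limit and 45 did not. The limit was wide for hAFE, whose replicates differed most, and narrow for hESC. In all 64 recomputed counts of gained or lost gene starts the count was 0. With the 500 bp window this was fixed in advance, since every member had a start peak in all libraries or in none. The genes strict in every library numbered 48 with the 25000 strongest regions, 51 when ranked by fold, 69 with a 250 bp window and 76 with the 100000 strongest. The main setting gave 71, so 48 and 51 passed as within the factor of 1.5. The share over all genes was not computed under these settings. Ranked by fold, the median percentile was 68.5 and 72.0 for hESC, 71.3 for hDE replicate 2 and 74.9 for hAFE replicate 2. With a 1000 bp window it was 68.8 and 70.0 in hESC, and with 250 bp 71.9 in hESC replicate 2. The start positions were varied after the data had been seen: with given starts alone the median was 63.1 and 66.0 for hESC, 67.2 and 64.6 for hDE, 70.7 and 61.9 for hAFE, then 64.4 for hPFE, and with either gene end for every gene 70.9 and 71.9 in hESC. Changed regions depended most on the settings, and the shares over all regions were not computed under the alternatives. With the 25000 strongest regions, 0 were gained from hDE to hAFE, 1 was gained and 0 lost from hAFE to hPFE, and 0 were lost from hESC to hPFE. With the 100000 strongest, 4 were gained and 2 lost from hESC to hDE, 2 lost from hDE to hAFE, 5 gained and 5 lost from hAFE to hPFE, and 8 gained and 10 lost from hESC to hPFE. Ranked by fold, 1 was gained from hDE to hAFE, 1 gained and 0 lost from hAFE to hPFE, and 0 lost from hESC to hPFE. With a 1 kb flank, 1 was gained from hDE to hAFE, and 0 were gained or lost from hAFE to hPFE and from hESC to hPFE. Leaving out a replicate gave 0 to 1 gained and 0 to 2 lost from hESC to hDE, and 2 to 3 gained and 0 to 1 lost from hDE to hAFE. It gave 2 to 3 gained and 2 to 4 lost from hAFE to hPFE, and 3 gained and 5 to 7 lost from hESC to hPFE. These counts could only stay or rise, since leaving out a library relaxes the rule. Mean peaks per gene were 4.41, 1.23 in the gene span alone and 2.68 among the 100000 strongest peaks. The cause of these moves was not tested, apart from the settings' own construction. No paired analysis was possible because the results come from no test.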

Other observations

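The 8 genes named as paralogs of ribosomal protein genes by the suffix L fell into levels far apart. RPL36AL had a median percentile of 96.5, RPL22L1 of 82.2, RPS27L of 77.6, RPL39L of 72.7, RPL7L1 of 59.4 and RPL26L1 of 46.0, and these 6 were strict in every library. RPL10L, an intronless copy of RPL10 known from the testis, had a start peak in 3 libraries (both hESC libraries and hDE replicate 1) and a strict one in 0. RPL3L, known from striated muscle, had a start peak in 1 library (hDE replicate 1) and a strict one in 0. RPL39L and RPL3L have no given start, and either gene end was accepted for them.

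Ribosomal protein pseudogenes were rarely in peaks. Of 1962 such pseudogenes, 3.01% to 5.91% held a peak per library and 0.663% to 1.22% a strict region, and 5 held a strict region in every library: RPL23AP7, RPL32P3, RPL5P28, RPSAP52 and RPL23AP82. All 5 are longer than 1000 bp, and 3 of them lie within 1 kb of the start of a protein-coding gene (RABL2A, HMGA2 and RABL2B). Of the 14702 other pseudogenes, which have a longer median length (773.5 against 536.5 bp), 10.1% to 16.5% held a peak. A limit of 1000 bp on both sets was added after these values had been seen. It left 1799 ribosomal protein pseudogenes, of which 2.00% to 4.84% held a peak and 0 a strict region in every library, and 8842 others, of which 3.13% to 6.29% held a peak and 14 a strict region in every library. The share was lower for the ribosomal protein pseudogenes in each library with and without the limit, but the size of the gap depended on it, and median lengths still differed under the limit (522 against 315 bp).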
